A study of Homo sapiens with 4 samples.

Results

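The 10 genes described here, POU5F1, NANOG, LIN28A, LIN28B, DPPA4, DPPA2, TDGF1, ZFP42, SALL4 and L1TD1, are known for their expression in pluripotent stem cells and early progenitors. They were chosen by name, and all 10 were found by Ensembl identifier among the 60234 gene rows of the count table. RNA sequencing counts were available for 4 sorted populations of the NKX2.5:GFP hESC line, a single human embryonic stem cell reporter line whose NKX2-5 locus drives GFP, so that cardiac cells fluoresce. Embryoid bodies were differentiated toward the cardiac lineage with a cytokine cocktail, and either 1 µM retinoic acid (RA) or the solvent DMSO (control, CTR) was added from day 4 to day 7. Each culture was sorted by GFP, at day 31 according to the series description, which gave RA GFP-positive, CTR GFP-positive, RA GFP-negative and CTR GFP-negative cells with 1 library each. GFP-negative cells are defined only by the absence of the reporter and can hold many cell types.

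With 1 library per condition, differences between conditions could not be set against a spread of replicates, and none was tested. The RA and CTR cells grew in separate cultures, which cannot be told apart from the RA treatment. Values are given in reads and in CPM, reads per 1000000 after scaling with TMM factors, a CPM carries its exact Poisson 95% interval, and a ratio of CPM its Clopper-Pearson 95% interval. Both intervals cover counting error only, since amplified reads are not independent molecules. The libraries held between 26222787 and 28643091 reads, except that of CTR GFP-negative cells with 4371101 reads. A count of 3 reads, the floor used for genes without reads, was 0.639 CPM in that library and between 0.105 and 0.117 CPM in the others. The sort was visible in the 10 cardiomyocyte markers, whose summed level was 17349 and 20235 CPM in the RA and CTR GFP-positive cells and 513 and 911 CPM in the GFP-negative cells.

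POU5F1 (OCT4) and NANOG encode transcription factors at the core of the network that keeps embryonic stem cells undifferentiated, and SALL4 and ZFP42 (REX1) encode zinc finger factors of the same cells. LIN28A and LIN28B encode RNA-binding proteins that block the maturation of let-7 microRNAs, while mature let-7 in turn represses LIN28 mRNAs. TDGF1 (CRIPTO) is a co-receptor for NODAL, DPPA2 and DPPA4 are chromatin-associated partners encoded side by side, and L1TD1 is an RNA-binding protein derived from a LINE-1 element. When stem cells differentiate, most of these genes are silenced, whereas LIN28B and SALL4 stay active in fetal progenitors of several tissues.

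The sequence below is shown because OCT4 and SOX2 are known to bind a joined motif ahead of the NANOG start, which links the first member to the second. RefSeq promoters (GRCh38.p14, 250 bases before to 50 after the start) were held for 6 of the 10 members, NANOG, DPPA2, DPPA4, L1TD1, ZFP42 and LIN28B, the last with 2 starts. They were searched on both strands for the octamer-like letters ATGCAAA and the SOX-like letters CATTGT. The stretch at chr12:7789242-7789341, plus strand, 160 to 61 bases before the NANOG start, is printed with the matches in capitals, both read on the opposite strand and 1 base apart.
NANOG: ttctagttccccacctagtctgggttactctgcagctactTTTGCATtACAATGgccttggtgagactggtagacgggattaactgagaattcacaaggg

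ATGCAAA was present in 1567 of 35116 promoters (4.46%), CATTGT in 3786 (10.8%), and both 1 base apart on one strand in 3, of which NANOG was one. Among the other member promoters, CATTGT was found ahead of 1 LIN28B start, and neither set of letters in the windows of DPPA2, DPPA4, L1TD1 and ZFP42. These matches describe letters in a window of a reference genome, not binding in these cells.

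Sites complementary to the let-7 seed are shown because LIN28B holds more of them than any other member. In let-7a-5p, bases 2 to 8 are the seed, in capitals, a seed that 8 let-7 names share. The letters CTACCTC pair with that seed, and each site is printed from the GRCh37 plus strand with those letters in capitals.
let-7a-5p: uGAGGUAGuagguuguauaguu
LIN28A, chr1:26753840-26753861: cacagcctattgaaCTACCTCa
LIN28B, chr6:105526688-105526709: cccggttgcaaagtCTACCTCa
LIN28B, chr6:105529115-105529136: actgatgatagtaaCTACCTCt
LIN28B, chr6:105529297-105529318: tttacagcaaaaggCTACCTCa
LIN28B, chr6:105530736-105530757: aatgatggtgttgaCTACCTCt

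The 3′ UTR of LIN28B, 4549 bases long in the canonical transcript, held 4 such matches. Of 1544 3′ UTRs of like length (0.8 to 1.2 times as long), 0.194% held as many. LIN28A and SALL4 held 1 match each, a number that 15.9% and 12.1% of 3′ UTRs of their length reached, and the other 7 members held none. Across all 19422 canonical 3′ UTRs, 9.78% held at least 1 match. No measurement of mature let-7 was used here.

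All 10 members were detected, with at least 4 reads, in RA GFP-negative cells. In CTR GFP-negative cells 6 were detected, in RA GFP-positive cells 8 and in CTR GFP-positive cells 7. Because the CTR GFP-negative library was the shallowest, these numbers were also taken at equal depth, in a single random draw of reads. There 9 members were detected in RA GFP-negative, 6 in CTR GFP-negative, 5 in RA GFP-positive and 3 in CTR GFP-positive cells. The summed level of the 10 genes was 111 CPM in RA GFP-negative cells, 53.5 CPM in CTR GFP-negative cells, 31.5 CPM in CTR GFP-positive cells and 26.2 CPM in RA GFP-positive cells. In bulk RNA of this kind, fewer cells that express a gene and less RNA per cell cannot be told apart.

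**Figure D1:**
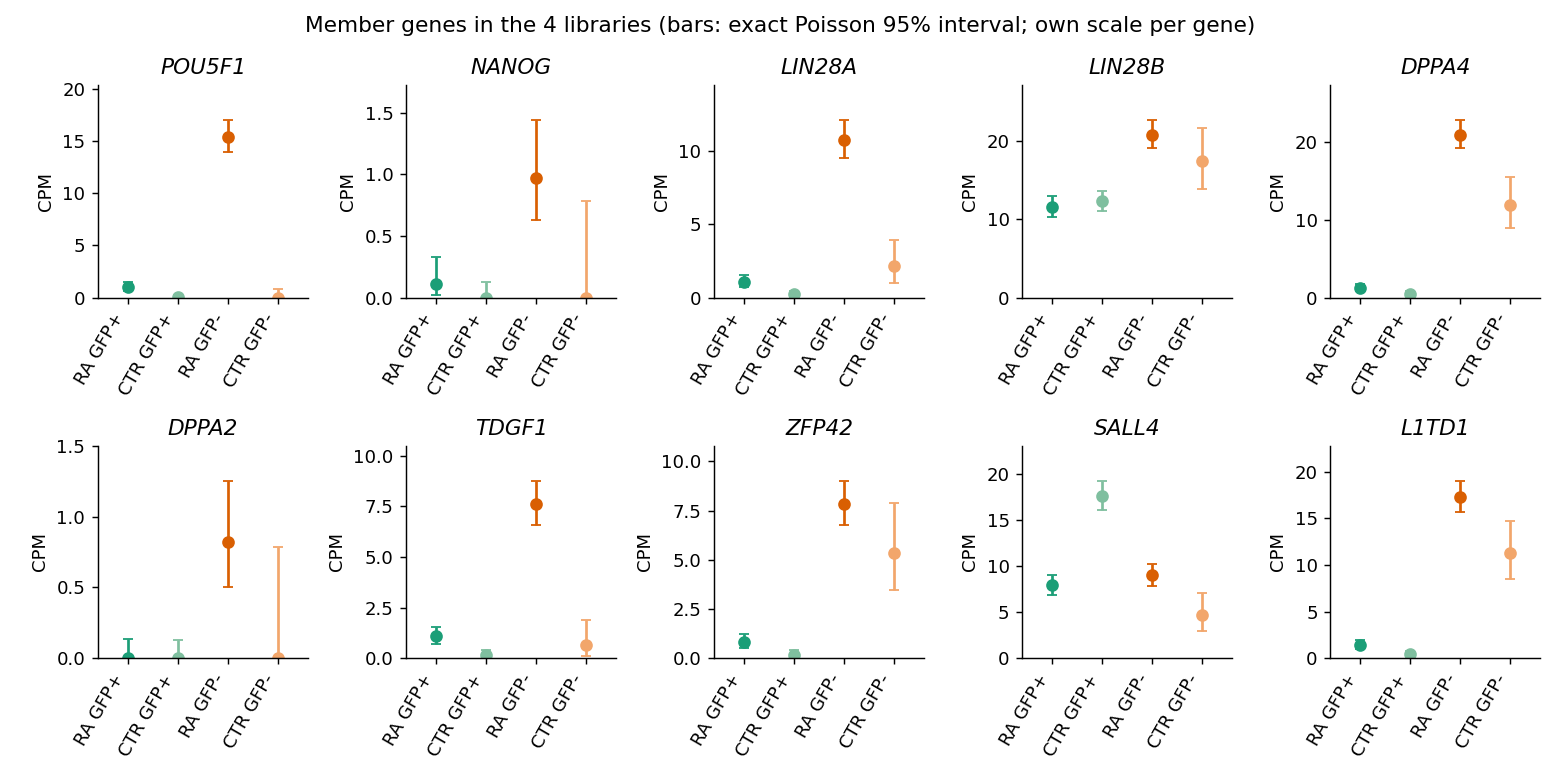
CPM of each of the 10 genes (vertical axes, linear from 0, own scale per gene) in the 4 libraries (horizontal axis), with exact Poisson 95% intervals as bars and 1 library per point. RA GFP-negative cells had the highest point for every gene but SALL4, which was highest in CTR GFP-positive cells at 17.7 CPM.

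POU5F1 (ENSG00000204531; protein coding, chromosome 6 of GRCh37, 31132114 to 31148508, minus strand) had 395 reads in RA GFP-negative cells, 27 in the RA GFP-positive library, 1 in its CTR counterpart and 0 in CTR GFP-negative cells. Its levels were 15.4 CPM (interval 13.9 to 17.0), 1.01 CPM (0.665 to 1.47), 0.0349 CPM (0.000884 to 0.194) and 0 CPM (up to 0.786) in the same order. POU5F1 reads were therefore concentrated in the RA culture, and most of them lay on the GFP-negative side of the sort. At the RA level, 72.3 reads would have been counted in the shallow CTR GFP-negative library, where none was.

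NANOG (ENSG00000111704; protein coding, chromosome 12, 7940390 to 7951742, plus strand), the partner of OCT4, was near the limit of detection. It had 25 reads in RA GFP-negative cells (0.974 CPM, interval 0.630 to 1.44), 3 in RA GFP-positive cells and 0 in both CTR libraries. For CTR GFP-negative cells the RA level predicted 4.57 reads, and the interval of the RA to CTR ratio began at 1.15. DPPA2 (ENSG00000163530; protein coding, chromosome 3, 109012635 to 109035364, minus strand) was found in 1 library only, with 21 reads in RA GFP-negative cells (0.818 CPM, interval 0.507 to 1.25), where 3.84 reads would be the equivalent in the CTR GFP-negative library, and the interval of that ratio began at 0.953, so that a difference was not detectable at this depth.

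DPPA4 (ENSG00000121570; protein coding, chromosome 3, 109044991 to 109056393, minus strand), which lies next to DPPA2, was at 7.53 CPM per kb of canonical transcript in RA GFP-negative cells, where DPPA2 was at 0.592. It had 539 reads in RA GFP-negative cells (21.0 CPM, interval 19.3 to 22.9), 56 in CTR GFP-negative cells (11.9 CPM, 9.01 to 15.5), 33 in RA GFP-positive cells (1.23 CPM, 0.849 to 1.73) and 14 in CTR GFP-positive cells (0.489 CPM, 0.267 to 0.820). Both GFP-negative libraries stood above both GFP-positive libraries, with no overlap of the intervals. DPPA4 thus differed from POU5F1 in being present in GFP-negative cells of either culture.

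L1TD1 (ENSG00000240563; protein coding, chromosome 1, 62660521 to 62678000, plus strand) had 444 reads in RA GFP-negative cells (17.3 CPM, interval 15.7 to 19.0), 53 in CTR GFP-negative cells (11.3 CPM, 8.45 to 14.8), 37 in RA GFP-positive cells (1.38 CPM, 0.974 to 1.91) and 14 in CTR GFP-positive cells (0.489 CPM, 0.267 to 0.820). ZFP42 (ENSG00000179059; protein coding, chromosome 4, 188916925 to 188926200, plus strand) had 201, 25, 22 and 5 reads in the same libraries, or 7.83 CPM (6.79 to 8.99), 5.32 CPM (3.45 to 7.86), 0.823 CPM (0.516 to 1.25) and 0.174 CPM (0.0567 to 0.407). Both genes had the order of DPPA4, and for ZFP42 the intervals of the RA and CTR GFP-negative libraries overlapped.

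TDGF1 (ENSG00000241186; protein coding, chromosome 3, 46616024 to 46623947, plus strand) had 195 reads in RA GFP-negative cells (7.60 CPM, interval 6.57 to 8.74), 29 in RA GFP-positive cells (1.08 CPM, 0.726 to 1.56), 5 in CTR GFP-positive cells (0.174 CPM, 0.0567 to 0.407) and only 3 in the CTR GFP-negative library (0.639 CPM, 0.132 to 1.87). The RA GFP-negative library stood apart, and the interval of CTR GFP-negative cells, which rests on 3 reads, overlapped those of both GFP-positive libraries.

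LIN28A (ENSG00000131914; protein coding, chromosome 1, 26737308 to 26756219, plus strand) had 276 reads in RA GFP-negative cells (10.8 CPM, interval 9.52 to 12.1), 10 in CTR GFP-negative cells (2.13 CPM, 1.02 to 3.92), 29 in RA GFP-positive cells (1.08 CPM, 0.726 to 1.56) and 6 in CTR GFP-positive cells (0.209 CPM, 0.0768 to 0.456). Its paralog LIN28B (ENSG00000187772; protein coding, chromosome 6, 105384491 to 105531207, plus strand) had 534 reads in RA GFP-negative cells (20.8 CPM, 19.1 to 22.7), 82 in CTR GFP-negative cells (17.5 CPM, 13.9 to 21.7), 310 in RA GFP-positive cells (11.6 CPM, 10.3 to 13.0) and 352 in CTR GFP-positive cells (12.3 CPM, 11.03 to 13.6). The 2 paralogs had different profiles: LIN28A was high in a single library, whereas LIN28B stayed above 10 CPM in all 4.

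SALL4 (ENSG00000101115; protein coding, chromosome 20, 50398870 to 50419060, minus strand) was the only member highest in GFP-positive cells. It had 506 reads in CTR GFP-positive cells (17.7 CPM, interval 16.2 to 19.3), 212 in RA GFP-positive cells (7.93 CPM, 6.90 to 9.07), 231 in RA GFP-negative cells (9.002 CPM, 7.88 to 10.2) and 22 in CTR GFP-negative cells (4.69 CPM, 2.94 to 7.09). The intervals of both RA libraries overlapped, and CTR GFP-positive cells lay above all others.

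Levels of the members were ordered per kb of canonical transcript. In RA GFP-negative cells POU5F1 came first with 10.9 CPM per kb (interval 9.87 to 12.1), followed by DPPA4 with 7.53 (6.91 to 8.20) and L1TD1 with 4.52 (4.11 to 4.96). TDGF1 with 3.89 (3.36 to 4.47) and LIN28B with 3.82 (3.50 to 4.16) came next, and the intervals of L1TD1, TDGF1 and LIN28B overlapped. NANOG, at 0.188 CPM per kb (0.122 to 0.278), was last.

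In CTR GFP-negative cells the order began with DPPA4 at 4.28 CPM per kb (3.23 to 5.55), LIN28B at 3.21 (2.55 to 3.98) and L1TD1 at 2.95 (2.21 to 3.85), which overlapped. In CTR GFP-positive cells SALL4 with 3.39 (3.10 to 3.70) and LIN28B with 2.26 (2.03 to 2.504) were first and second, and the third, DPPA4, was at 0.175 (0.0958 to 0.294). In RA GFP-positive cells LIN28B with 2.13 (1.90 to 2.38) stood before SALL4 with 1.52 (1.32 to 1.74). With the merged exons of all transcripts as the length, POU5F1 still came first in RA GFP-negative cells, at 5.36 CPM per kb, whereas L1TD1 took first place in CTR GFP-negative cells.

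**Figure D2:**
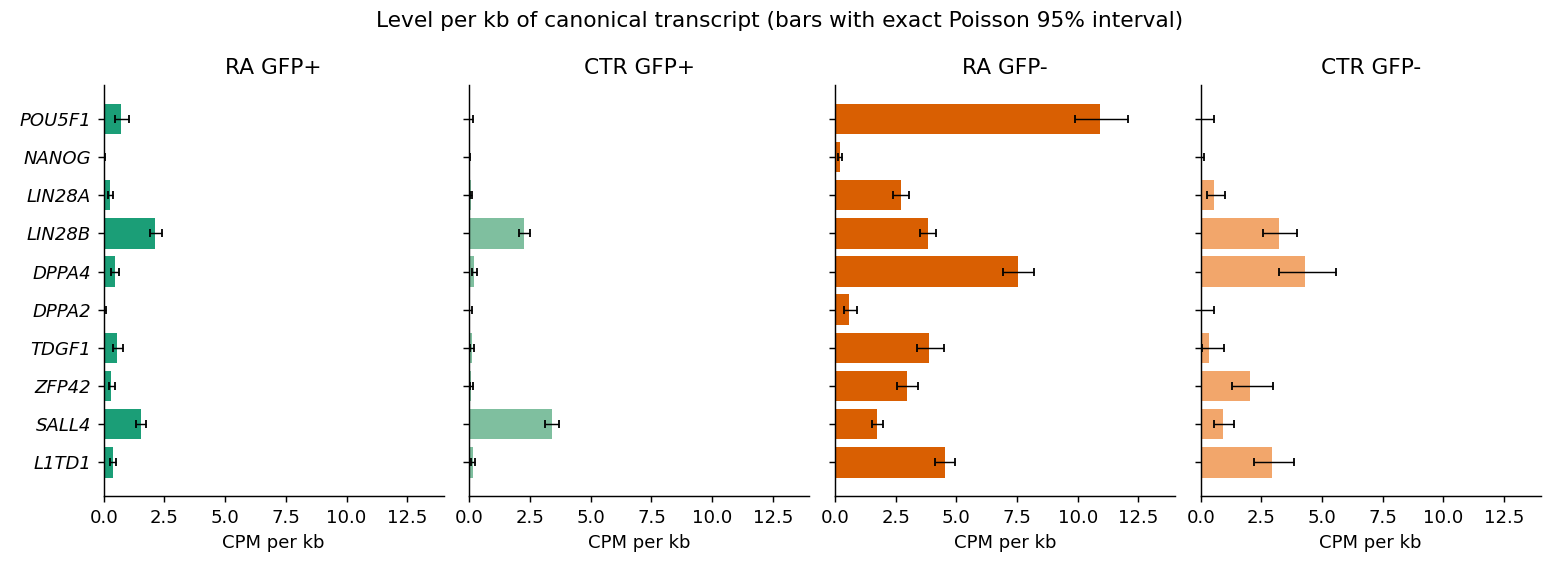
CPM per kb of canonical transcript (horizontal axes, linear from 0) for the 10 genes in each of the 4 libraries, with exact Poisson 95% intervals. POU5F1 has the longest bar in RA GFP-negative cells, at 10.9 CPM per kb, and is at 0 in CTR GFP-negative cells, while LIN28B and SALL4 make up most of both GFP-positive panels.

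Which genes differed with RA in the GFP-negative cells was asked on the log2(CPM + 1) scale, where a difference of at least 1 was taken as 2-fold, among 17199 genes with a mean of at least 1 CPM over the 4 libraries. NANOG and DPPA2 had lower means, so 8 members were compared. POU5F1, TDGF1 and LIN28A reached that mean only through RA GFP-negative cells, the library where they were highest, so that the filter favoured their being called and the counts and medians over the 8 are a description. With RA, 3 of the 8 were at least 2-fold higher, against 7.34% of all genes compared, and 0 were lower, against 5.35%. POU5F1 was higher by 4.03, which is at least 19.5-fold by the Clopper-Pearson interval and 24.1-fold when CTR is set at the floor of 3 reads. TDGF1 was higher by 2.39, a ratio of 11.9 (interval 4.01 to 58.2), and LIN28A by 1.91, a ratio of 5.05 (2.71 to 10.7).

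The other 5 were under 2-fold, at 0.82 for SALL4 (ratio 1.92, 1.24 to 3.13), 0.77 for DPPA4 (1.76, 1.34 to 2.36), 0.57 for L1TD1 (1.53, 1.15 to 2.08), 0.48 for ZFP42 (1.47, 0.968 to 2.33) and 0.24 for LIN28B (1.19, 0.943 to 1.52). Their sign was the same for all 8, and the counting intervals of ZFP42 and LIN28B included a ratio of 1. The median of the 8 differences was 0.79, beside 0.07 over all genes compared.

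In GFP-positive cells 0 of the 8 members were at least 2-fold higher with RA, against 4.91% of all genes, and 1 was lower, against 1.82%. SALL4 differed by -1.06 on the log2 scale, a ratio of 0.449 (0.381 to 0.528), and LIN28B differed by -0.08, a ratio of 0.944 (0.807 to 1.10). The remaining 6 were between 0.59 and 0.96 higher on the log2(CPM + 1) scale, which understates the change of genes at around 1 CPM. As plain CPM ratios these 6 ranged from 2.53 for DPPA4 (1.32 to 5.11) to 28.9 for POU5F1 (4.77 to 1184), with LIN28A at 5.18 (2.11 to 15.3), TDGF1 at 6.21 (2.38 to 20.6), ZFP42 at 4.71 (1.74 to 15.9) and L1TD1 at 2.83 (1.495 to 5.67).

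By a CPM ratio of at least 2, a measure chosen after seeing the data, 6 of the 8 members were higher and 1 lower. The shares were 8.93% and 4.44% of 17162 genes, those of the 17199 compared with more than 3 reads in either GFP-positive library. The 6 were at most at 1.38 CPM in GFP-positive cells and reached the mean of 1 CPM only through the GFP-negative libraries. Counting error is wider at such levels, so that the count beside these shares is a description. The denominators of the 6 higher ratios were 1 to 14 reads. All libraries were also thinned to the same depth, in a single random draw. LIN28A at 1.54 (8 reads with RA and 0 in CTR) and DPPA4 at 1.36 (9 and 1) then passed 2-fold on the log2(CPM + 1) scale. ZFP42 had 2 reads in each library. L1TD1 had 3 with RA and 4 in CTR, and its sign turned, to -0.15, while SALL4 was at -0.92, under 2-fold. With a pseudocount of 5 CPM SALL4 was at -0.81.

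Markers of some other cell types also differed with RA in GFP-positive cells. They are counted here on the log2(CPM + 1) scale, which understates the change of genes at around 1 CPM. Of the 10 stromal genes, 9 were at least 2-fold higher and 1 lower, with a summed level of 15307 CPM with RA and 4019 CPM in CTR, and none was at 0 in either library. Of the 12 hepatic endoderm genes, 5 were higher and 1 lower, with 63.7 and 15.1 CPM. AFP, the fetal serum protein, had 604 reads with RA and 8 in CTR, and FGB, a fibrinogen chain, had 106 and 0. The gut epithelium genes had 2 of 7 higher (39.9 and 19.3 CPM), the endothelial genes 1 of 7 (21.2 and 19.8 CPM) and the proliferation genes 3 of 10 (142 and 90.6 CPM), with 0 lower in each. Of 11 neural and eye genes compared, 1 was higher and 3 were lower, with a median of -0.30. Without a pseudocount, and with genes without reads set at the floor, the median log2 ratio of the members was 1.87. It was then 2.24 for hepatic, 2.05 for stromal, 1.51 for gut, 1.48 for endothelial, 0.87 for proliferation and -1.09 for neural and eye genes. The part of these cell types in the members' differences between GFP-positive libraries was not tested.

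**Figure D3:**
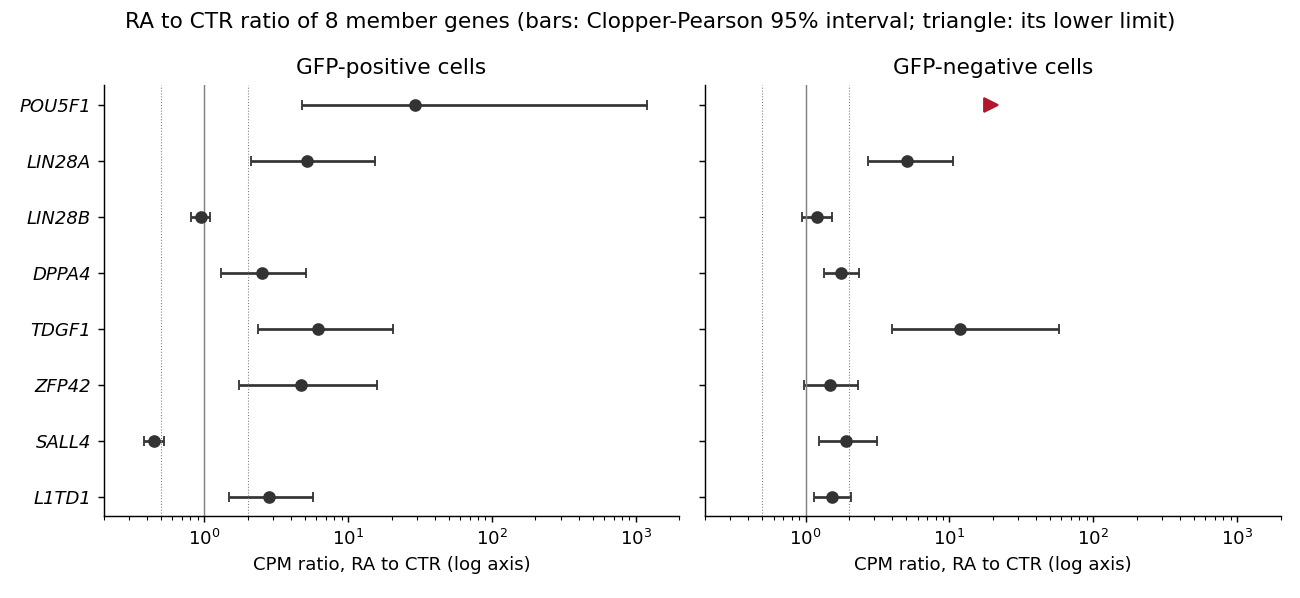
Ratio of CPM in RA to CPM in CTR (log axes) for the 8 genes compared, in GFP-positive and GFP-negative cells, with Clopper-Pearson 95% intervals. The triangle marks the lower limit of that interval for POU5F1 in GFP-negative cells, 19.5, dotted lines mark 2-fold either way, and SALL4 lies left of 1 at 0.449 in GFP-positive cells and right of 1 at 1.92 in GFP-negative cells.

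Whether the sort separated these genes was asked within each culture. Of the 8 members compared, all but SALL4 and LIN28B reached the mean of 1 CPM only through the GFP-negative libraries, so that the filter favoured their being called lower in GFP-positive cells, and the counts and medians that follow are a description. In the CTR culture 4 of the 8 members were at least 2-fold lower on the GFP-positive side, against 15.1% of all genes, and 1 was higher, against 13.3%. On the log2 scale the differences were -3.12 for DPPA4, -3.05 for L1TD1, -2.43 for ZFP42 and -1.37 for LIN28A, and SALL4 was higher by 1.71. SALL4 was thus 3.77 times as high in GFP-positive cells (2.46 to 6.07), whereas DPPA4 was at 0.0410 (0.0211 to 0.0746) of its GFP-negative level. POU5F1 had 1 read in the pair and TDGF1 8 reads, too few for an order between the fractions. Of the markers of other cell types, 9 of 10 stromal, 7 of 7 endothelial, 10 of 11 neural and eye and 7 of 10 proliferation genes were also at least 2-fold lower in GFP-positive cells of the CTR culture, but 4 of 12 hepatic and 1 of 7 gut genes. NCAM1 of the neural list was higher, at 574 against 73.3 CPM.

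In the RA culture 6 of the 8 were at least 2-fold lower in GFP-positive cells, against 13.4% of all genes, and 0 were higher, against 10.2%. The differences were -3.30 for DPPA4, -3.03 for POU5F1, -2.94 for L1TD1, -2.496 for LIN28A, -2.28 for ZFP42 and -2.04 for TDGF1. In these 6 genes the GFP-positive level was between 0.0587 and 0.143 of the GFP-negative level. LIN28B at -0.79 (ratio 0.557, 0.483 to 0.642) and SALL4 at -0.16 (0.881, 0.727 to 1.07) were under 2-fold.

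The median over the 8 members was -2.39 in the RA culture and -0.93 in the CTR culture, beside 0.02 and 0.05 over all genes. Of the markers of other cell types, all 12 hepatic, 7 gut and 7 endothelial genes compared and 9 of 10 stromal, 8 of 11 neural and eye and 7 of 10 proliferation genes were at least 2-fold lower in GFP-positive cells of the RA culture. The stromal receptor gene PDGFRA was higher, at 295 against 138.5 CPM, as was NCAM1 of the neural list, at 733 against 90.8 CPM. Among those lower, the ratio was 0.0486 for AFP (0.0447 to 0.0528), 0.0242 for CDH17 (0.0171 to 0.0332), 0.0742 for LUM (0.0703 to 0.0783) and 0.0278 for CDH5 (0.0188 to 0.0397). The part of GFP-negative cells or free RNA in the few member reads of the GFP-positive libraries was not tested.

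**Figure D4:**
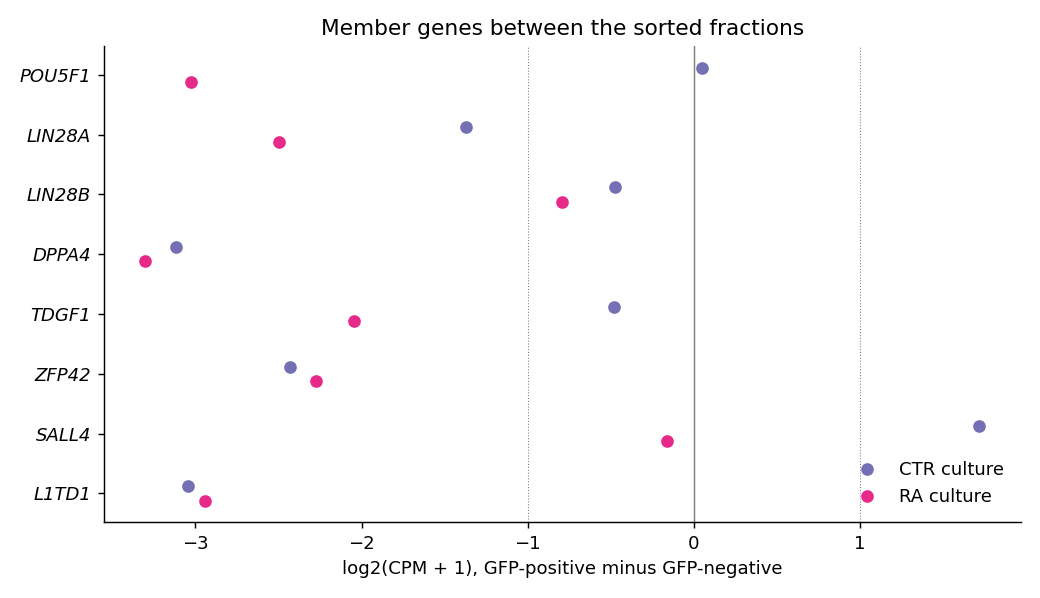
Difference of log2(CPM + 1) between GFP-positive and GFP-negative cells (horizontal axis) for the 8 genes compared, in the CTR and the RA culture, with dotted lines at 2-fold. DPPA4 and L1TD1 lie near -3 in both cultures, at -3.12 and -3.05 in CTR and -3.30 and -2.94 in RA, while POU5F1 is at 0.05 in CTR and -3.03 in RA.

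The wider stem cell network did not move in one direction with RA in GFP-negative cells. Of 25 further genes of the human embryonic stem cell network, 17 were compared, and 5 were at least 2-fold higher and 5 lower, with a median of 0.24. Among those higher, ESRG, UTF1 and ZSCAN10 reached the mean of 1 CPM only through RA GFP-negative cells, so that the filter favoured their being called. The largest differences were GAL, a neuropeptide, at 1.84 and ZSCAN10, a zinc finger factor, at 1.75 on the high side, and OTX2, a factor also known from the forebrain, at -2.88 on the low side. SOX2, the partner of OCT4 and also a neural progenitor factor, had 366 reads with RA and 158 in CTR (14.3 and 33.6 CPM), a difference of -1.18 on the log2 scale.

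Of that network and of the NODAL pathway, 8 genes had reads in RA GFP-negative cells and none in CTR GFP-negative cells, and 7 of them had too low a mean to be compared. These are named after their values were seen. In the network, PRDM14, a factor of the pluripotent state, had 52 reads, the forkhead factor FOXD3 46, TERT, the catalytic subunit of telomerase, 26 and DNMT3L, a cofactor of DNA methyltransferases, 8. In the pathway, the receptor ACVR1C had 42, GDF3, a ligand of the TGF-beta family, 35 and NODAL itself 29. At those levels only between 1.46 and 9.52 reads would have been counted in the CTR library.

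Of 15 genes of the NODAL pathway, in which TDGF1 acts, 11 were compared, and 3 were at least 2-fold higher with RA and 0 lower in GFP-negative cells. LEFTY1 and CER1 reached the mean of 1 CPM only through RA GFP-negative cells, so that the filter favoured their being called and the count and median are a description. LEFTY1, an inhibitor of NODAL, had 373 reads against 7 and was higher by 2.64, and CER1, another secreted inhibitor, had 96 against 0 and was higher by 2.25. CFC1, the closest relative of TDGF1, had 184 against 6 and was higher by 1.84. The lowest were the receptor ACVR2B at -0.50 and the effector SMAD3 at -0.30, and the median was 0.32. In GFP-positive cells 0 of the 11 differed by 2-fold with RA on the log2(CPM + 1) scale, and CFC1 had 298 reads with RA and 342 in CTR. As a plain CPM ratio, CER1 was at 4.29 there (1.56 to 14.6), with 20 and 5 reads. FOXH1 was at 0.429 (0.283 to 0.637), with 36 and 90 reads.

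Among 14 genes of the LIN28 and let-7 axis, 0 differed by 2-fold with RA in either fraction on the log2(CPM + 1) scale. As a plain CPM ratio, MIRLET7BHG was at 3.12 in GFP-positive cells (1.53 to 6.85), with 32 reads with RA and 11 in CTR. HMGA2, a chromatin protein whose 3′ UTR held 4 let-7 seed matches, was nearest to 2-fold on the log2 scale, at 0.99 in GFP-negative cells (5947 and 545 reads) and 0.94 in GFP-positive cells (1932 and 1063 reads). TRIM71, with 6 matches, differed by 0.69 and -0.90, and DICER1, the enzyme that cuts the let-7 precursor, was lowest in GFP-negative cells at -0.51. Between fractions HMGA2 was lower in GFP-positive cells in both cultures, at -1.62 in CTR and -1.67 in RA, and TRIM71 was higher by 1.25 in CTR.

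Naive state and reprogramming factors had 7 genes compared, of which 3 were at least 2-fold higher with RA in GFP-negative cells and 0 lower, led by TBX3 at 1.54 and KLF2 at 1.17. Germ cell genes had 4 compared, and 1, TFAP2C, was higher at 1.16 (93 and 5 reads), though it too reached the mean of 1 CPM only through RA GFP-negative cells. DND1, SYCP3 and DPPA3 were at 0 reads in both GFP-negative libraries. Of the primitive streak genes, 2 of 8 were compared, MIXL1 at 0.54 and MESP1 at 0.60, and TBXT had 0 reads in both GFP-negative libraries. Of 11 family relatives of the members, 6 were compared and 1, CFC1, was higher. SALL1, a relative of SALL4, differed by -0.90 in GFP-negative and -0.29 in GFP-positive cells.

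Markers of endoderm were also higher with RA in GFP-negative cells. Of 12 hepatic endoderm genes, 10 were at least 2-fold higher with RA and 1 lower, with a median of 3.67, and their summed level was 1090 CPM with RA and 93.7 CPM in CTR. AFP had 11921 reads against 14, and SERPINA1 7347 against 16, while TTR was at -2.55. All 7 gut epithelium genes compared were higher, from 2.30 for the homeobox factor CDX1 to 5.43 for the cadherin CDH17, and the summed level was 269.9 and 23.2 CPM. None of the 12 hepatic and 8 gut genes was at 0 reads in RA GFP-negative cells, whereas FOXA2 and MUC13 were at 0 in CTR GFP-negative cells.

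Neural and eye genes went the other way, with 7 of 11 at least 2-fold lower and 1 higher with RA, from -3.78 for DCT to 2.05 for STMN2, and a summed level of 229 CPM with RA and 439.6 CPM in CTR, and none of the 12 was at 0 in either library. Of 10 stromal genes, 4 were higher and 1 lower, and of 7 endothelial genes, 2 were higher and 0 lower. Proliferation genes had 0 of 10 past 2-fold, with a median of 0.42. Of 10 cardiomyocyte genes, 3 were lower and 0 higher with RA, with a median of -0.88 and a summed level of 513 CPM with RA and 911 CPM in CTR. The part of these cell types in the members' differences was not tested.

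**Figure D5:**
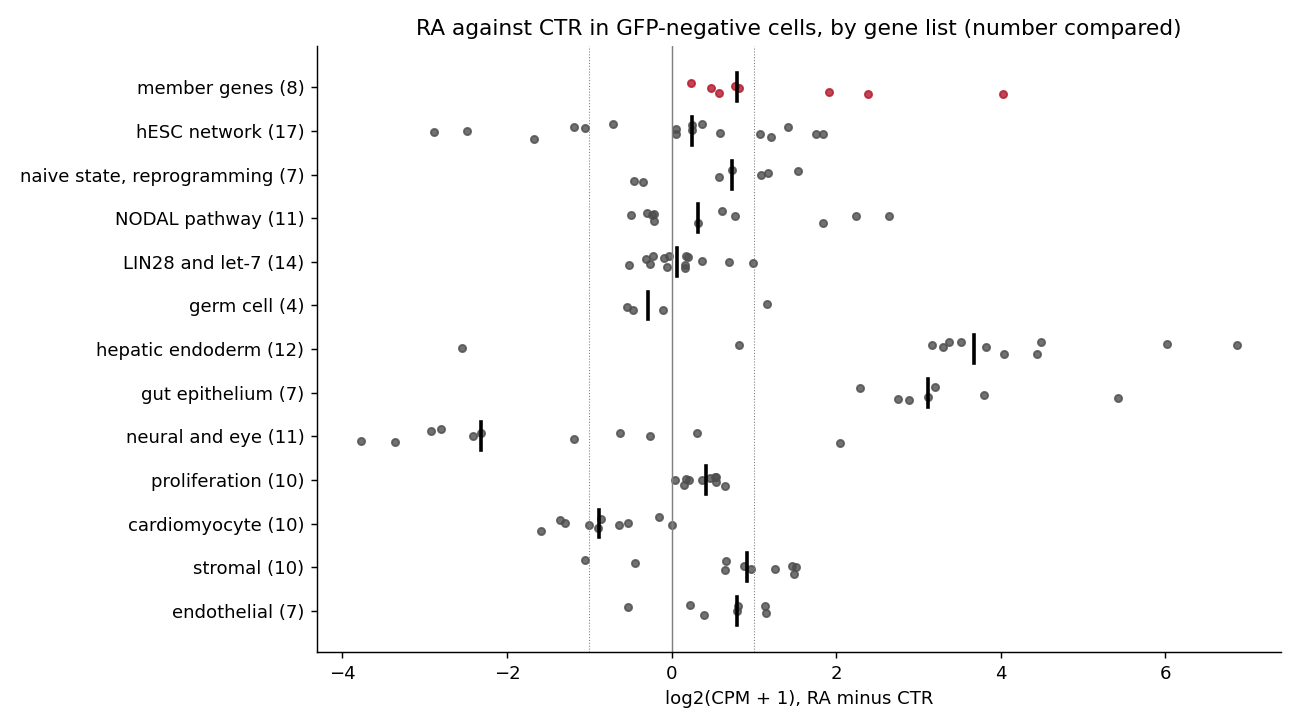
Difference of log2(CPM + 1) between RA and CTR in GFP-negative cells (horizontal axis) for the 8 members (top row, red) and the genes of 12 lists, with the number compared in brackets, 1 point per gene, the median as a bar and dotted lines at 2-fold. The members' median of 0.79 lies beside those of the naive state, endothelial and stromal lists at 0.74, 0.80 and 0.92, above the stem cell network at 0.24 and below the gut and hepatic lists at 3.12 and 3.67.

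The genes whose profile over the 4 libraries was nearest to each member were found by the Euclidean distance of centred log2(CPM + 1) values among the genes compared, over 4 points only. Nearest to POU5F1 were MEP1A, an intestinal brush border protease, CBLIF (gastric intrinsic factor) and TFF1, a gastric trefoil peptide, at distances of 0.21 to 0.29, with 15 genes within 0.5. MEP1A had 0.748, 0.0349, 13.2 and 0 CPM in RA GFP-positive, CTR GFP-positive, RA GFP-negative and CTR GFP-negative cells. TDGF1 was nearest to LINC01013, CALCRL and the intestinal factor CDX1, and LIN28A to TFPI, LGR6 and EVPL.

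DPPA4 was nearest to KRT17, ESRP1 and SPINT1, which are known from epithelia, and L1TD1 to CYP1A1 and again to KRT17, which had 9.95, 6.25, 97.7 and 59.2 CPM in the same order of libraries. ZFP42 was nearest to AMPH, CHST2 and COL5A1, and SALL4 to C16orf96, VCAM1 and snoU13. LIN28B lay close to PPIAP22, EEF1A1P4 and RPLP2, but 2304 genes were within 0.5 of it, so that its nearly even profile was a common one.

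Several members have near-identical copies, and since only uniquely placed reads were counted, their own counts are uncertain. Of 38 annotated pseudogenes and copies, POU5F1B had 71 reads in RA GFP-negative, 13 in CTR GFP-negative, 20 in CTR GFP-positive and 9 in RA GFP-positive cells, a profile unlike that of POU5F1, with 2.77 CPM in both GFP-negative libraries. POU5F1P3 had 24, 0, 19 and 20 reads in the same order. TDGF1P3 had 26 reads in RA GFP-negative cells and 2, 0 and 3 in the others, and NANOGP1 had 9 and NANOGP8 4, in RA GFP-negative cells only. The libraries were strand specific but counted without strand, and exon bases shared with a gene on the other strand made up 8.64% of POU5F1 (TCF19), 4.42% of TDGF1 (LRRC2) and 3.05% of LIN28B (LIN28B-AS1).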

How the data were processed

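Strand-specific paired-end libraries of the 4 sorted populations were trimmed with SICKLE, aligned with GSNAP to a custom hg19 genome keeping uniquely placed reads, sorted with SAMtools 0.1.18 and counted per Ensembl gene with HTSeq 0.6.1p1, without strand and in the intersection-nonempty mode. The authors deposited the read counts without normalization. The Ensembl release is not given in the sources used here.

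Identifiers were matched to GENCODE on GRCh37 (55538 of 60234 rows, 92.2%). CPM used TMM factors of the 4 libraries (0.951 to 1.07) from edgeR 4.0.16 in R 4.3.3. Genes with a mean of at least 1 CPM were compared as differences of log2(CPM + 1). No test was made, with 1 library per condition. Intervals were computed with scipy 1.17.1, and figures with matplotlib 3.10.9. The procedure was tested on simulated data. Alternatives were other scalings (library size, DESeq2 1.42.0 size factors, upper quartile, library size after leaving out mitochondrial genes and the top 10), 0.25 or 5 CPM as the pseudocount, equal depth, other filters and thresholds, and other detection limits.

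The members and the 14 gene lists were chosen with earlier results of these data known. Named are all members, their copies, the 3 nearest profiles of each member with at least 5 CPM in any library, and up to 4 genes per list with the largest and smallest differences. Other named genes were chosen after their values were seen. PECAM1 was not analysed here. Some genes that the naming rule selects are not reported here.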

Additional observations from a re-analysis of the deposited data

Results flagged for a closer look

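SALL4 differed in opposite directions with RA in the 2 fractions. The difference of log2(CPM + 1) was -1.064 in GFP-positive cells (212 reads with RA and 506 in CTR) and 0.815 in GFP-negative cells (231 and 22 reads). Whether the 2 fractions differ in this was not tested, since each condition has 1 library.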

How the results depend on the processing

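No paired analysis was possible because each condition has 1 library, and none could be left out in turn. Of the members, 1 was at least 2-fold apart between RA and CTR in GFP-positive cells; this became 7 with a pseudocount of 0.25 CPM, a 1.5-fold threshold or a plain ratio (chosen after seeing the data), 2 at equal depth, and 0 with a pseudocount of 5 CPM or a 4-fold threshold. The 3 in GFP-negative cells became 5 at 1.5-fold. The 5 between the fractions of CTR became 3 with a pseudocount of 5 CPM, a filter of at least 10 CPM in either library or a 4-fold threshold. The median in GFP-positive cells was -0.57 with that filter, which left 2 members, SALL4 and LIN28B, and 1.87 as a plain ratio. With pseudocounts of 0.25 and 5 CPM it was 1.24 and 0.20, and at equal depth 0.39. Between the fractions of CTR the median of -0.93 became -1.72 and -0.42 with those pseudocounts, -1.76 with at least 10 CPM (4 members), -0.48 without a filter (10 members) and -3.35 as a plain ratio (7 members), and in RA it was -2.98 and -1.26 with the pseudocounts and -3.28 as a plain ratio. A median counted as moved when it shifted by more than the median counting half-width of the members' ratios, and a count when it changed more than 1.5-fold. By this rule the medians moved in GFP-positive cells and between the fractions of CTR only as a plain ratio. In GFP-positive cells the filter of 10 CPM reversed the sign. Between the fractions of RA the median moved with both pseudocounts and as a plain ratio. The 9 members detected at equal depth were not a move. Detected members became 4 in CTR GFP-positive cells with at least 10 reads, and at equal depth 5 (RA) and 3 (CTR) in GFP-positive cells and 9 (RA) in GFP-negative cells. Of 255 single-gene values under the alternatives, 0 of those called turned direction and 1 uncalled value (L1TD1 at equal depth) did. In CTR GFP-negative cells DPPA2 was expected at 3.84 reads, under the limit of 4, and NANOG at 4.57, so that depth leaves their ratios with wide intervals. At equal depth POU5F1 had 75 reads with RA and 0 in CTR, and TDGF1 33 and 3.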
